A study of Homo sapiens with 8 samples.

Results

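The genes of cholesterol and fatty acid synthesis were followed in HepG2 cells given quercetin or control medium. They form a list of 32 symbols, and a gene counted as measured when at least 1 probe set was annotated on the platform to that symbol alone. This held for 29 genes with 65 probe sets, of 19775 genes and 54675 probe sets in all. The sterol branch held 15 genes, the fatty acid branch 8, and 5 were regulators or carriers (INSIG1, STARD4, SREBF1, SREBF2 and SCAP). AACS, which activates acetoacetate for lipid synthesis, stood in neither branch. CYP51A1 (2 probe sets) and FADS1 (3 probe sets) appeared only on probe sets that carry several symbols, and FDFT1 had no listed probe set in that annotation, so these 3 were not analysed here. HepG2 is a human hepatocellular carcinoma line. Cells were serum-starved and then kept in serum-free medium with 3 µM quercetin, a plant flavonol, or in serum-free medium without it, for 2, 4, 12 or 24 h. Every culture, the controls included, was thus without serum, and the starvation lasted 24 h or overnight depending on the label read. Each treatment and time had 1 Affymetrix array, which gave 4 quercetin arrays and 4 control arrays. No group had a replicate array.

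Cholesterol is built from acetyl-CoA through the mevalonate pathway, squalene and lanosterol, while fatty acids are built from the same acetyl-CoA by carboxylation, chain synthesis, elongation and desaturation. Liver cells run both branches at high rates and export much of the product in lipoproteins. The transcription factors encoded by SREBF2 and SREBF1 drive the sterol and the fatty acid genes. SCAP escorts their precursors out of the endoplasmic reticulum when sterols are low, and the INSIG proteins hold that complex back when sterols are plentiful.

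Values are log2 expression from the authors' RMA table, in which a higher value means more signal. The array medians lay between 7.36 and 7.48. The hepatocyte genes ALB, AFP, APOA1, APOA2, APOB, APOH and TF averaged 14.61 to 15.06, above the 99.8th percentile of all probe sets, and TTR and FGB averaged 11.46 and 12.41. Markers of leukocytes, fibroblasts and endothelium (10 genes) averaged 6.25 (CDH5) to 9.23 (COL1A1), at the percentiles 24.1 to 81.1 of all probe sets. The arrays at 2 h were the pair least alike in 18S rRNA and spike-in signal, and those at 12 h in the difference between 3′ and 5′ probe sets of ACTB and GAPDH, a sign of RNA integrity and labelling. The 18S rRNA probe sets averaged 12.01 in the quercetin array at 2 h, against 8.57 in the control array. At 4 h they averaged 11.62 with quercetin, against 11.52 in control, at 12 h 7.29 against 7.35, and at 24 h 9.16 against 9.82. The hybridisation spike-ins averaged 11.87 with quercetin at 2 h, against 11.00 in control. They averaged 11.70 against 11.70 at 4 h, 10.98 against 10.89 at 12 h, and 11.60 against 11.87 at 24 h. The ACTB 3′ minus 5′ difference (log2) was 1.11, 1.17, 0.88 and 1.39 with quercetin at 2, 4, 12 and 24 h, against 0.88, 1.12, 1.40 and 1.36 in control. That of GAPDH was 0.56, 0.61, 0.48 and 0.42 with quercetin, against 0.47, 0.61, 0.61 and 0.41 in control. The part of these differences in the results below was not tested. The arrays also differed in spread, with SDs of 1.74 to 1.95 over all probe sets.

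Over the 4 times, most lipid synthesis genes read lower with quercetin than in control, but none passed the test. The difference was negative in 25 of the 28 genes bright enough to test, where 57.2% of the 13301 genes tested were lower. The median difference was -0.14, against -0.03 over all tested genes. It was negative in 13 of 15 sterol genes (median -0.17), in 7 of 8 fatty acid genes (median -0.09) and in 4 of 4 regulators and carriers (median -0.16). The 3 genes with a positive difference were MVK (0.08), EBP (0.06) and FASN (0.07). Under a stricter filter (mean above 8.75) 23 of 26 members were lower, against 66.5% of the 8102 genes past it. The medians were then -0.14 for members and -0.05 for all genes past it, so bright genes in general read lower with quercetin. On the brightest probe sets, the largest differences were those of STARD4 (-0.44 ± 0.13, SE) and HMGCS1 (-0.43 ± 0.12), then of ELOVL6 (-0.34 ± 0.12) and IDI1 (-0.31 ± 0.11). In limma's additive fit of time and treatment, 0 of 28 members and 0% of all genes had a Benjamini-Hochberg adjusted p under 0.05, with adjusted p = 0.844 for each of these 4. Without adjustment, p was under 0.05 for 6 members (HMGCS1, IDI1, HSD17B7, SC5D, STARD4 and ELOVL6) and for 784 of all genes. Each array read the RNA of a whole culture, so fewer cells making a transcript and less of it per cell cannot be told apart.

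The difference changed with time. At 2 h the sterol genes stood at a median of -0.35 and the fatty acid genes at -0.32, where all tested genes stood at -0.06. At 4 h the medians were -0.32 for sterol, -0.19 for fatty acid and -0.02 for all genes. At 12 h both branches were on the other side, at 0.20 and 0.14, with all genes at 0.05. In that pair of arrays the ACTB 3′ minus 5′ difference was 0.88 with quercetin, against 1.40 in control, and its part in the 12 h values of the members was not tested. At 24 h they were at -0.14 and -0.10, with all genes at -0.10. In the sterol branch 13, 13, 4 and 11 of 15 genes were lower with quercetin at 2, 4, 12 and 24 h. In the fatty acid branch the counts were 7, 8, 2 and 7 of 8. Over all tested genes 58.0%, 54.2%, 40.7% and 66.2% were lower, so the share at 24 h was high everywhere. Under the stricter filter 72.4%, 55.8%, 36.6% and 74% of the 8102 genes were lower, with a median of -0.15 at 2 h. The members lower under that filter were 23, 24, 7 and 21 of 26. After cyclic loess normalization the sterol medians were -0.23, -0.27, 0.08 and -0.04 and the fatty acid medians -0.18, -0.14, 0.06 and 0.0008, so the fatty acid sign at 24 h flipped. With the mean of each gene's probe sets in place of the brightest, the sterol median at 12 h was -0.0026, and with gene-specific probe sets the fatty acid median at 12 h was -0.0088, so these signs flipped too. Each of these values compares 1 array with 1 array and has no test.

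**Figure D1:**
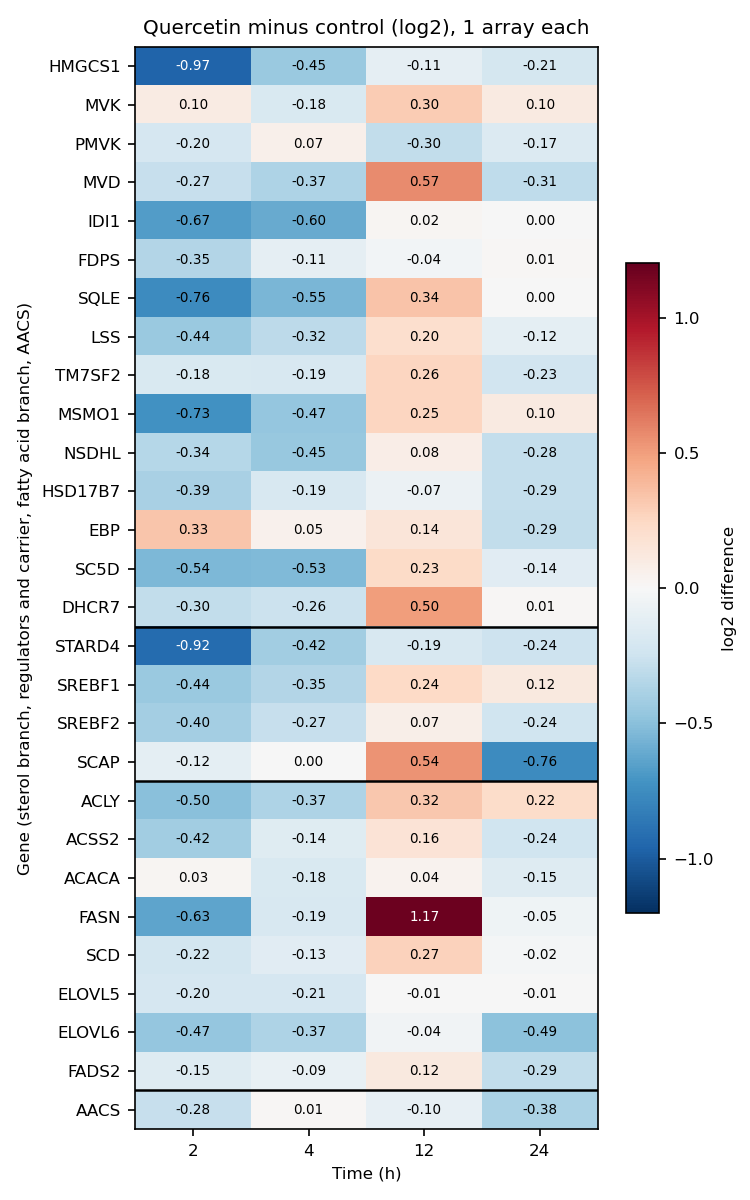
Quercetin minus control (log2) for each of the 28 tested lipid synthesis genes at 2, 4, 12 and 24 h, 1 array of each treatment per cell, with sterol genes above, then regulators and carrier, fatty acid genes and AACS, divided by black lines. Blue cells (lower with quercetin) fill most of the 2 and 4 h columns, red cells most of the 12 h column, and FASN at 12 h (1.17) is the largest value.

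Individual genes followed the same course in large part. Of the 28 members, 23 were lower at both 2 and 4 h, as were 31.1% of all tested genes. The 23 comprised 12 sterol genes, 7 fatty acid genes and 4 regulators or carriers. Lower at 2 and 4 h and higher at 12 h were 17 of 28, against 19.2% of all genes. HMGCS1, HSD17B7, STARD4, ELOVL5 and ELOVL6 were lower at all 4 times, 5 of 28 against 9.28% of all genes, and 0 were higher at all 4, against 4.54%. These counts read the brightest probe set of each gene, and dimmer ones of ELOVL5 and ELOVL6 were not lower at every time. Between the branches no test was run. On the brightest probe sets, sterol minus fatty acid medians were -0.03, -0.13, 0.06 and -0.04 at 2, 4, 12 and 24 h (SD 0.080). For the mean of the times this distance was -0.074, and it was -0.10 to 0.0045 over the alternatives. With gene-specific probe sets the medians at 2 h were further apart, at -0.52 for 9 sterol genes and -0.20 for 3 fatty acid genes.

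The promoters of the listed genes were also compared, taking the 250 bases before each RefSeq start site (GRCh38.p14). Of the 32 symbols 29 are in the RefSeq table used. These are not the same 29 as the measured genes, since they include CYP51A1 and FADS1, which have no values here, and lack SQLE and FASN. The letters searched were CCAAT, the core bound by NF-Y, TCACNCCAC, a form of the sterol regulatory element bound by the SREBF proteins, GGGCGG, the core of the GC box bound by SP1, and CACGTG, an E-box, each on both strands. CCAAT lay in 19 of 29 windows (12 of 15 sterol, 4 of 8 fatty acid, 3 of 5 regulators and carriers), against 33.0% of the 27305 windows in the table and 34.5% of the 10628 windows of tested genes. GGGCGG lay in 26 of 29, against 42.3% of all windows and 64.0% of those of tested genes. CACGTG lay in 4 of 29 (ELOVL5, INSIG1, SC5D and SCAP), against 6.49% of all windows and 8.56% of those of tested genes. TCACNCCAC lay in 1 of 29, SREBF2, against 0.875% of all windows and 0.894% of those of tested genes. Those of 5 genes are shown 5′ to 3′ along the gene, ending at the base before the start site, with CCAAT or its reverse complement in capitals, and for SREBF2 also the sterol regulatory element match, which begins 133 bases before the start. HMGCS1 and STARD4 had the largest mean differences, MSMO1 and ACLY changed between early and late times as given below, and SREBF2 holds the sole sterol regulatory element match. HMGCS1 is at chr5:43313413-43313662 (- strand), MSMO1 at chr4:165327419-165327668 (+ strand), ACLY at chr17:41919023-41919272 (- strand), STARD4 at chr5:111512536-111512785 (- strand) and SREBF2 at chr22:41832855-41833104 (+ strand).
HMGCS1: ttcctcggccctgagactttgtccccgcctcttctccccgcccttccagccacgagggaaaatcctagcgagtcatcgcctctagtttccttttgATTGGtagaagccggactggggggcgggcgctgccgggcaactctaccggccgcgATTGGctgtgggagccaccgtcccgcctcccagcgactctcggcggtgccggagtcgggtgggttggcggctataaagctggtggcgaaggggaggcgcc
MSMO1: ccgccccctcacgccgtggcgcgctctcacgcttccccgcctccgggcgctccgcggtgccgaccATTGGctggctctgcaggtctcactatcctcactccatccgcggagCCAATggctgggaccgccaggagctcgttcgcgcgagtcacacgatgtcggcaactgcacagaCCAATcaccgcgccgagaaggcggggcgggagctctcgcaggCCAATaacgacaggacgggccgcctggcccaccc
ACLY: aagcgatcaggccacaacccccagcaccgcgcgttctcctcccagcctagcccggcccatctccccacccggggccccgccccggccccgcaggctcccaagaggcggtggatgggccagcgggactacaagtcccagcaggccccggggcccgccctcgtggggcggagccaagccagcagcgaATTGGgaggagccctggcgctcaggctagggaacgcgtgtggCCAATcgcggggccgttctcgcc
STARD4: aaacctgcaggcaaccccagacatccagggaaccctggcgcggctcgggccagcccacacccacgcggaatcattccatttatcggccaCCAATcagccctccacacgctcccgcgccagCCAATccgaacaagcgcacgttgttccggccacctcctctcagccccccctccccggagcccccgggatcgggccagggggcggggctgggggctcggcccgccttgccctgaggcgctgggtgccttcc
SREBF2: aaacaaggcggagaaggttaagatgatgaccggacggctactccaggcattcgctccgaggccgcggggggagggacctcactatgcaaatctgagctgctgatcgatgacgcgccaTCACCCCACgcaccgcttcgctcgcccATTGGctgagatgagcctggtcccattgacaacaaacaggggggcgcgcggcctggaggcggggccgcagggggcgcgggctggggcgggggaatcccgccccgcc
The windows of HMGCS1, ACLY and STARD4 hold 2 such cores each, that of MSMO1 holds 4 and that of SREBF2 holds 1. A match of letters is a description of the sequence and not a measured site. The windows were not split by the course of the genes, and a link between these letters and the differences at 2 and 4 h was not tested.

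In the early sterol pathway, HMGCS1, the synthase that feeds the mevalonate pathway, had the widest gap at 2 h. Its brightest probe set read 11.40, 11.85, 11.94 and 11.22 in the quercetin arrays at 2, 4, 12 and 24 h, against 12.36, 12.30, 12.04 and 11.43 in the control arrays. Every quercetin array was below its control, with differences of -0.97 at 2 h and of -0.45 to -0.11 at the later times. A dimmer HMGCS1 probe set read 8.67, 9.57, 9.26 and 8.70 with quercetin, against 10.82, 9.91, 9.57 and 8.84 in control. It was also lower at every time, with a gap at 2 h of -2.16. Without the 2 h arrays the mean difference of the brighter probe set was -0.25. IDI1, which isomerises the isoprenoid building block, read 11.52, 11.51, 12.11 and 12.22 with quercetin, against 12.19, 12.12, 12.09 and 12.22 in control. It was low with quercetin at 2 and 4 h (-0.67 and -0.60) and level with control at 12 and 24 h. The probe set that reads IDI1 carries the manufacturer's mark for possible cross-hybridisation. Among the other enzymes up to farnesyl diphosphate, differences at 2, 4, 12 and 24 h were 0.10, -0.18, 0.30 and 0.10 for MVK (mevalonate kinase), and -0.20, 0.07, -0.30 and -0.17 for PMVK (phosphomevalonate kinase). They were -0.27, -0.37, 0.57 and -0.31 for MVD, which decarboxylates mevalonate diphosphate, and -0.35, -0.11, -0.04 and 0.01 for FDPS, which makes farnesyl diphosphate. PMVK was thus the 1 of these 6 that was lower at 12 h by more than at 2 h.

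Squalene epoxidase, encoded by SQLE, opens the sterol-specific part of the pathway. SQLE read 11.45, 11.44, 12.33 and 12.14 with quercetin at 2, 4, 12 and 24 h, against 12.20, 11.99, 11.98 and 12.14 in control. The 2 early quercetin arrays were the lowest of the 8, and the quercetin array at 12 h was the highest. Another bright SQLE probe set read 11.35, 11.34, 12.25 and 12.17 with quercetin, against 11.80, 11.99, 10.70 and 11.90 in control. There the control array at 12 h was the lowest, so the 12 h difference was 1.54 on this probe set, against 0.34 on the brighter one. MSMO1, which removes methyl groups from lanosterol products, read 12.56, 12.80, 13.20 and 13.24 with quercetin, against 13.29, 13.27, 12.94 and 13.14 in control. Quercetin was below control at 2 and 4 h and above it at 12 and 24 h. SC5D, a sterol desaturase, read 11.87, 11.70, 12.41 and 12.37 with quercetin, against 12.41, 12.23, 12.18 and 12.51 in control. Its 2 early quercetin arrays were the lowest of the 8. LSS, which folds squalene epoxide into lanosterol, read 11.64, 11.41, 11.89 and 11.21 with quercetin, against 12.08, 11.73, 11.69 and 11.32 in control. TM7SF2, a sterol reductase, read 11.13, 10.85, 10.98 and 10.06 with quercetin, against 11.31, 11.04, 10.72 and 10.30 in control. Both genes were lowest at 24 h under either treatment.

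HSD17B7, a sterol ketone reductase, read 11.16, 11.11, 11.50 and 11.45 with quercetin at 2, 4, 12 and 24 h, against 11.55, 11.30, 11.56 and 11.74 in control. Quercetin was below control at each time, with differences of -0.39 to -0.07. The probe set of HSD17B7 also carries the mark for possible cross-hybridisation. NSDHL, which acts beside it in demethylation, differed by -0.34, -0.45, 0.08 and -0.28. DHCR7, the reductase of the last step, differed by -0.30, -0.26, 0.50 and 0.01. EBP, the sterol isomerase, differed by 0.33, 0.05, 0.14 and -0.29 on its brightest probe set, and by -0.07, -0.21, -0.26 and 0.03 on the next brightest, so these probe sets differed in sign at every time. A dimmer EBP probe set read 11.07, 11.05, 9.37 and 9.83 with quercetin, against 9.64, 10.82, 9.15 and 10.60 in control. It was high on the arrays with high 18S signal and lowest at 12 h, where 18S was lowest, and the part of 18S signal in it was not tested.

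Among carriers and regulators, STARD4, which moves sterol between membranes, had the most negative mean difference of all members on the brightest probe sets (-0.44). The dimmer HMGCS1 probe set averaged -0.74. STARD4 read 9.02, 9.82, 10.16 and 9.72 with quercetin at 2, 4, 12 and 24 h, against 9.95, 10.23, 10.35 and 9.97 in control. It was below control at each time, with differences of -0.92 at 2 h and of -0.42 to -0.19 later, and without the 2 h arrays its mean difference was -0.28. On their brightest probe sets SREBF1 differed by -0.44, -0.35, 0.24 and 0.12, and SREBF2 by -0.40, -0.27, 0.07 and -0.24. A dimmer SREBF1 probe set differed by -0.34, -0.12, 0.43 and -0.33. Dimmer SREBF2 probe sets differed by -0.03, -0.16, 0.19 and -0.36, and by 0.17, -0.15, 0.12 and -0.16. SCAP read 10.29, 9.99, 10.50 and 10.38 with quercetin, against 10.41, 9.99, 9.96 and 11.14 in control. The treatments were level at 4 h, quercetin was higher at 12 h, and the control array at 24 h was the highest of the 8. INSIG1 was not tested, because its 3 probe sets were dim. They read 5.70 to 7.25 over the 8 arrays, and none reached the 7.43 that a gene's mean had to exceed.

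In the fatty acid branch, ACLY, which makes cytosolic acetyl-CoA from citrate, read 12.67, 12.39, 13.05 and 12.71 with quercetin at 2, 4, 12 and 24 h, against 13.17, 12.76, 12.73 and 12.49 in control. Quercetin was below control at 2 and 4 h and above it at 12 and 24 h. FASN, the fatty acid synthase, read 11.32, 11.33, 12.40 and 11.29 with quercetin, against 11.96, 11.52, 11.23 and 11.34 in control. The quercetin array at 12 h was the highest of the 8 and differed from its control by 1.17, while the differences at the other times were -0.63, -0.19 and -0.05. A dim FASN probe set differed by 0.31, -0.66, 0.21 and 0.17, so it did not show the gap of the bright one at 12 h. ELOVL6, an elongase of saturated chains, read 10.31, 9.96, 10.99 and 10.58 with quercetin, against 10.77, 10.33, 11.03 and 11.07 in control. On this brightest probe set quercetin was lower at each time, least at 12 h (-0.04). A dimmer ELOVL6 probe set differed by -1.04, 0.135, 0.43 and -0.11, so it was higher with quercetin at 4 and 12 h. The dimmest differed by -0.16, 0.02, -0.13 and -0.71. ACSS2, which activates free acetate, read 11.16, 11.05, 11.49 and 10.75 with quercetin, against 11.58, 11.19, 11.33 and 10.99 in control. ELOVL5, an elongase of polyunsaturated chains, read 11.60, 11.29, 11.71 and 11.83 with quercetin, against 11.80, 11.49, 11.72 and 11.83 in control. ACSS2 was higher with quercetin at 12 h alone, and ELOVL5 was level with control from 12 h on. ACACA, the acetyl-CoA carboxylase, differed by 0.03, -0.18, 0.04 and -0.15. SCD, the stearoyl-CoA desaturase, differed by -0.22, -0.13, 0.27 and -0.02, and FADS2, a desaturase of polyunsaturated chains, by -0.15, -0.09, 0.12 and -0.29. From brighter to dimmer, the other SCD probe sets differed by -0.09, -0.61 and -0.57 at 2 h. At 24 h they differed by 0.32, 0.27 and -0.09, so SCD probe sets differed in sign there. AACS read 10.33, 10.23, 10.32 and 10.54 with quercetin, against 10.60, 10.21, 10.42 and 10.92 in control, and its widest gap was at 24 h (-0.38).

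**Figure D2:**
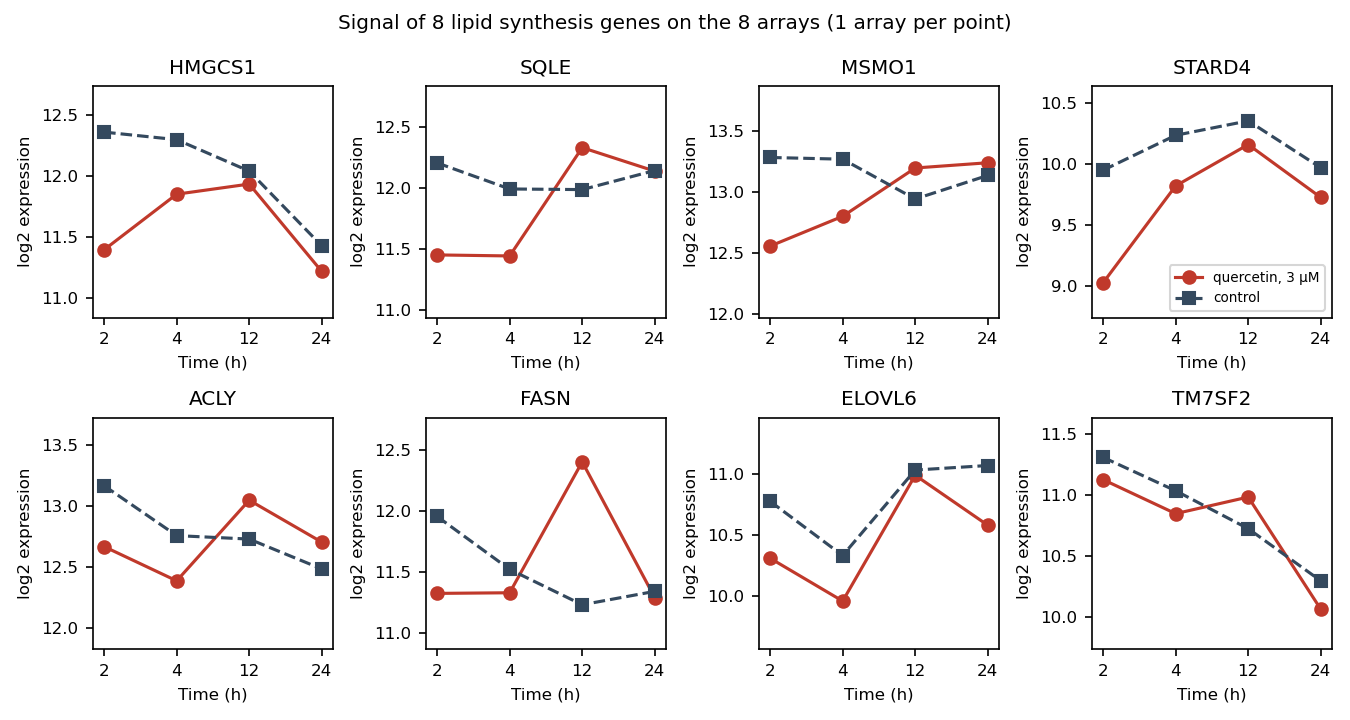
Log2 expression of 8 lipid synthesis genes on the brightest probe set of each, by time in h, with 1 array per point (quercetin, 3 µM, red circles; control, dark squares; panel scales start above 0 and differ). The quercetin arrays of SQLE, MSMO1 and ACLY lie below control at 2 and 4 h and above it at 12 h, and FASN at 12 h reads 12.40 with quercetin, against 11.23 in control.

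A fit with a separate late term tested whether the difference between treatments was the same at the late times (12 and 24 h) as at the early times (2 and 4 h). It was more positive at the late times in 24 of 28 members, with a median of 0.27, against 54.6% of all genes and a median of 0.03. The median was 0.42 in the sterol branch (13 of 15 positive), 0.22 in the fatty acid branch (8 of 8 positive) and 0.35 in regulators and carriers (3 of 4 positive). The test called 4 members, all more positive late, where 0.278% of all genes were called in that direction. They were FASN (0.97 ± 0.22, SE), SQLE (0.82 ± 0.20), MSMO1 (0.78 ± 0.16) and ACLY (0.70 ± 0.17), with limma adjusted p of 0.00614, 0.0177, 0.00110 and 0.0145. The next were IDI1 (0.65 ± 0.20) and SC5D (0.58 ± 0.19), which did not pass (adjusted p = 0.178 and 0.275). This fit has 2 residual degrees of freedom, and its moderation gave every gene the variance of the mean-variance trend, so no gene's own spread entered its SE. Called members were 0 after cyclic loess, after quantile normalization, without the trend, or without either array at 2 h, 1 (FASN) without either at 4 h, 2 (MSMO1 and ACLY) without either at 12 h, and 7 without either at 24 h. After median centring 3 members were called (MSMO1, ACLY and FASN), where 0.158% of all genes were called more positive late. FASN stood at 0.36 without either array at 12 h, the pair with the widest gap in ACTB 3′ minus 5′ signal.

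**Figure D3:**
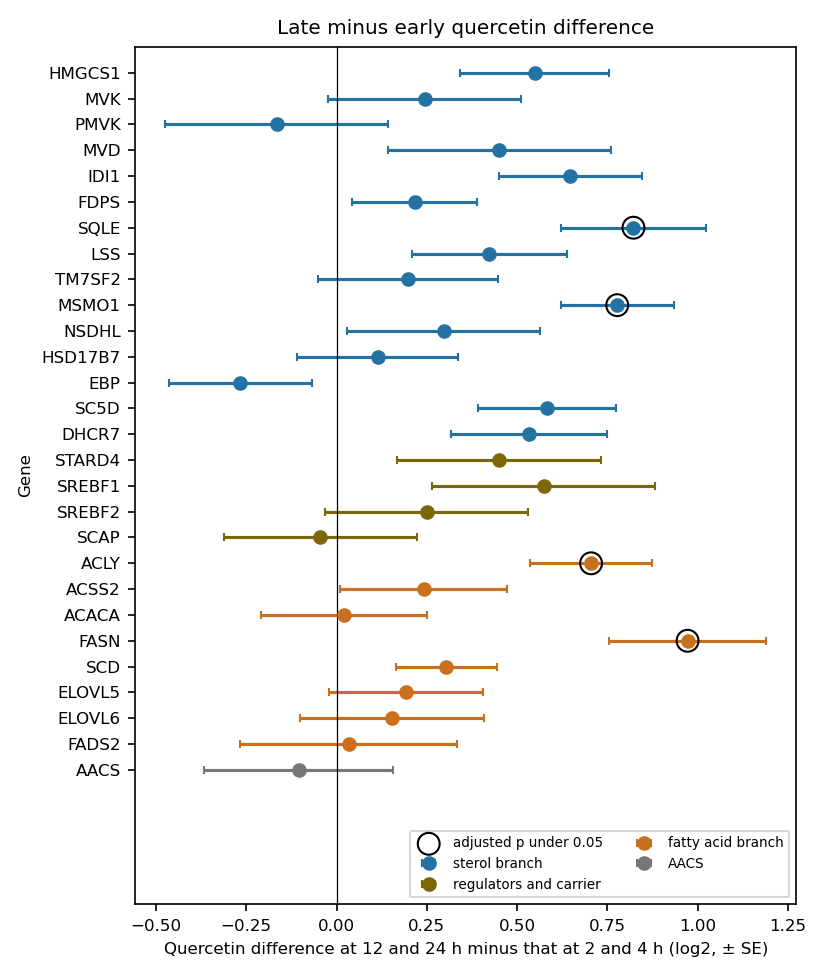
Quercetin difference at 12 and 24 h minus that at 2 and 4 h (log2, ± SE from the limma fit) for the 28 tested members, coloured by branch, with a ring around the 4 genes with adjusted p under 0.05. Points right of 0 are more positive at the late times, and 24 of 28 lie there.

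Within each treatment, the step between 4 and 12 h differed for these genes. In the quercetin arrays 26 of 28 members were higher at 12 h than at 4 h, with a median step of 0.41, where 59.6% of all genes were higher and their median step was 0.08. In the control arrays 11 of 28 were higher, with a median of -0.03, against 49.6% of all genes. After cyclic loess 20 of 28 were higher in the quercetin arrays (median 0.17), against 10 in the control arrays (median -0.10). After median centring 26 were higher in the quercetin arrays (median 0.48), against 18 in the control arrays (median 0.061), so the sign of the control step flipped, and 59.7% of all genes were then higher in control. Each step compares 1 array with 1 array, and these arrays also gave the differences above.

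Time in serum-free medium, averaged over both treatments, was tested in the additive fit. Between 4 h and 2 h, 0 of 28 members were called, where 0.534% of all genes were, and 5 members and 2350 of all genes had an unadjusted p under 0.05 in limma. Between 12 h and 4 h, ELOVL6 was called higher (0.87 ± 0.16, SE, adjusted p = 0.00413), where 6.59% of all genes were. That call was lost without the control array at 4 h or the quercetin array at 12 h, and 5 members were called without the control array at 12 h. Between 24 h and 12 h, 4 members fell, where 4.78% of all genes were called lower. These were TM7SF2 (-0.67 ± 0.16), HMGCS1 (-0.67 ± 0.16), ACSS2 (-0.54 ± 0.16) and LSS (-0.53 ± 0.15), with adjusted p of 0.00517, 0.00618, 0.0158 and 0.0164. The same 4 were the members called between 24 h and 2 h, all lower, where 3.98% of all genes were. There TM7SF2 differed by -1.04 ± 0.16 (adjusted p = 0.000136), LSS by -0.59 ± 0.15 (0.00829), HMGCS1 by -0.56 ± 0.16 (0.0192) and ACSS2 by -0.50 ± 0.16 (0.0243). TM7SF2 was called for 24 h against 2 h whichever array was left out. Without the control array at 24 h it was the 1 member called in either of these contrasts. The calls of LSS and ACSS2 were also lost in both contrasts without the quercetin array at 24 h, as was that of TM7SF2 for 24 h against 12 h. Without the quercetin array at 12 h none of the 4 was called for 24 h against 12 h, and without the control array at 2 h HMGCS1, LSS and ACSS2 were not called for 24 h against 2 h. Leaving out the control array at 12 h brought the count to 8 in each contrast, as did leaving out the quercetin array at 12 h for 24 h against 2 h.

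Between 24 h and 4 h, 9 members were called, and the calls of the 7 that were higher were lost after cyclic loess or quantile normalization. On the deposited scale 7 were higher, where 32.8% of all genes were called higher, and 2 were lower, where 9.47% were. Higher were SCAP (0.77 ± 0.21, SE), ELOVL6 (0.68 ± 0.16), AACS (0.51 ± 0.16), SC5D (0.48 ± 0.16), ELOVL5 (0.44 ± 0.14), IDI1 (0.41 ± 0.16) and HSD17B7 (0.39 ± 0.14), with limma adjusted p of 0.00213 to 0.0462. Lower were TM7SF2 (-0.76 ± 0.16, adjusted p = 0.000812) and HMGCS1 (-0.75 ± 0.16, adjusted p = 0.00102). The median of all tested genes was itself 0.19 on this scale, and it was -0.01 after cyclic loess and -0.03 after quantile normalization. The members' median was 0.05 on the deposited scale, -0.33 after loess and -0.35 after quantile normalization. After loess 0 members were called higher and 14 lower, where 17.2% of all genes were called higher and 15.2% lower. HMGCS1, LSS, TM7SF2, DHCR7, ACLY and ACSS2 were among the 14. After quantile normalization the counts were 0 and 12, against 15.6% and 15.5% of all genes. After median centring they were 9 higher and 2 lower, against 39.1% and 6.65%. HMGCS1 and TM7SF2 were lower on all of these scales. The count on the deposited scale was 2 without the control array at 24 h, 4 without the control array at 4 h, and 5 without the quercetin array at 4 h or at 24 h.

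**Figure D4:**
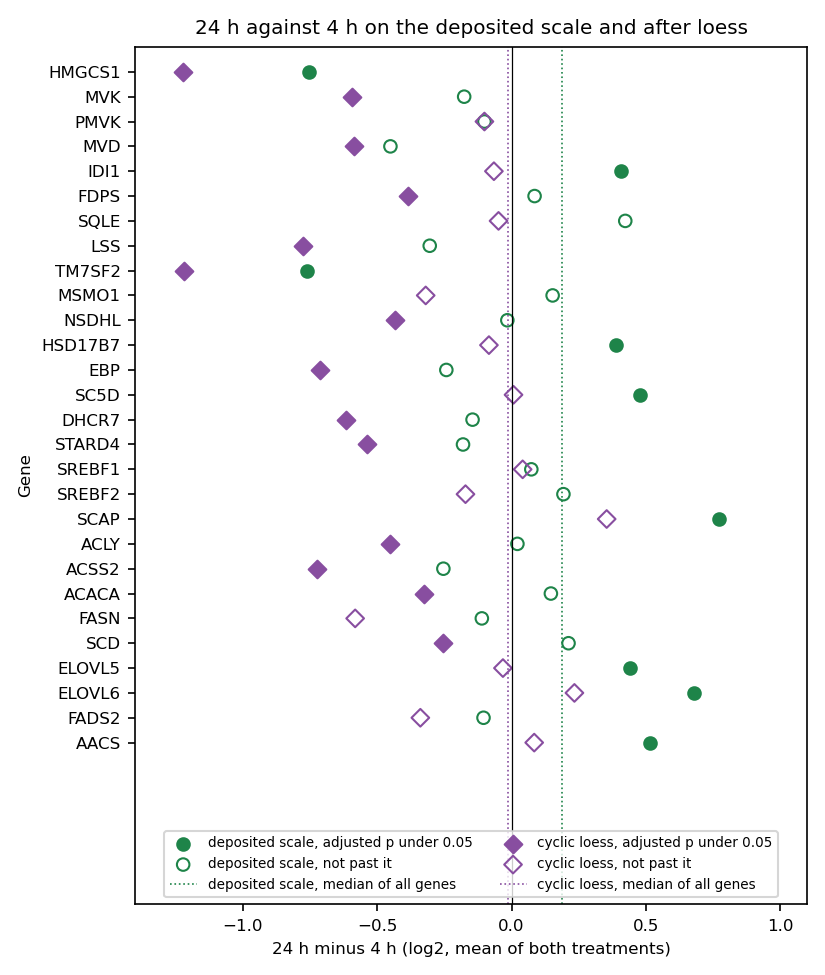
Mean log2 expression of both treatments at 24 h minus 4 h for the 28 tested members, on the deposited scale (green circles) and after cyclic loess (purple diamonds), filled where limma's adjusted p is under 0.05, with dotted lines at the median of all tested genes (0.19 and -0.01). HMGCS1 and TM7SF2 are filled and left of 0 on both scales, and the 7 filled circles right of 0 have open diamonds.

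Other genes of the same pathways were read from a list of 26, of which 22 were bright enough to test. For quercetin against control over the 4 times 17 of 22 were lower and 0 were called, where 57.2% of all tested genes were lower and 0% were called. For late against early 14 of 22 were more positive, against 54.6% of all tested genes. Of the 22, 0 were called, where 0.278% of all genes were called more positive. LPIN1, a phosphatidate phosphatase, was largest at 0.80. With time, INSIG2, which retains SCAP, and NPC1, which releases cholesterol from lysosomes, had the largest called rises. INSIG2 read 9.85, 9.57, 10.56 and 11.96 with quercetin at 2, 4, 12 and 24 h, against 10.43, 9.94, 10.77 and 11.90 in control. NPC1 read 10.21, 10.12, 10.18 and 11.61 with quercetin, against 10.49, 10.18, 10.01 and 11.58 in control. Both were highest at 24 h under either treatment. Between 24 h and 12 h, 6 of 22 rose, where 19% of all genes were called higher, and 2 fell, where 4.78% were called lower (limma, adjusted p under 0.05). NPC1 (1.50), INSIG2 (1.27), SOAT2 (0.70), MBTPS2 (0.55), MBTPS1 (0.53) and GGPS1 (0.52) were higher. ACACB (-0.54), a mitochondrial acetyl-CoA carboxylase, and ACAT2 (-0.49), which makes acetoacetyl-CoA, were lower. MBTPS1 and MBTPS2 cut the SREBF precursors, SOAT2 esterifies cholesterol, and GGPS1 makes geranylgeranyl diphosphate. After cyclic loess the rises of GGPS1, MBTPS1 and MBTPS2 did not pass (0.25, 0.38 and 0.31), while NPC1 (1.23), INSIG2 (0.99), SOAT2 (0.51), ACACB (-0.77) and ACAT2 (-0.81) passed. INSIG2 was thus called higher in the contrast that called HMGCS1, LSS, TM7SF2 and ACSS2 lower. In that contrast 11 of 28 members were higher and 17 lower, and a link between INSIG2 and the members was not tested.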

How the data were processed

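Total RNA of 8 HepG2 cultures was read on Affymetrix 3′ arrays, 1 array per treatment and time. The authors deposited log2 expression values from RMA (named in the submitters' processing notes, with version and settings not given in the sources used here). Of 54675 probe sets, 41091 had 1 symbol in the platform's annotation (updated through the Entrez identifier for 41037), 1800 had several, 11721 were not listed and 62 are controls. A gene was read from its brightest single-symbol probe set, and 13301 genes with a mean above 7.43, the median over probe sets, were tested, which left out 6474. Tests used limma 3.58.1 in R 4.3.3 (trended eBayes, Benjamini-Hochberg over all tested genes, threshold 0.05). The additive fit of time and treatment has 3 residual degrees of freedom, and the late against early fit has 2. In both, the residual spread comes from how treatment differences vary between times, and precision is limited by having 8 arrays. Moderation gave the additive fit 18.1 prior degrees of freedom beside its 3 residual ones. The SEs and adjusted p of its contrasts thus draw mostly on the mean-variance trend over all genes and little on a gene's own spread. Per-array values are given for members called in any contrast. STARD4 was added after its values were seen. The other pathway genes were named where called or largest, and NPC1 and INSIG2 are shown per array as the largest rises. The members and lists were chosen with earlier results of these data known. The code was tested on simulated data. Promoters come from RefSeq (GRCh38.p14). Alternatives covered the filter, probe set choice, normalization, moderation and leaving out arrays.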

Additional observations from a re-analysis of the deposited data

Results flagged for a closer look

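On the deposited scale, limma called a change in the quercetin difference between the early times (2 and 4 h) and the late times (12 and 24 h) for 4 genes. All 4 calls were lost after cyclic loess or quantile normalization, without the variance trend, or with probe sets averaged. After median centring that of SQLE was lost and those of MSMO1, ACLY and FASN were kept. FASN had a late minus early difference of 0.97, SQLE of 0.82, MSMO1 of 0.78 and ACLY of 0.70, all more positive at the late times together. At 24 h alone quercetin minus control was -0.05 for FASN and -0.005 for SQLE, against 0.10 for MSMO1 and 0.22 for ACLY. At each time 1 quercetin array was set against 1 control array. Groups of 1 array cannot be searched for arrays that lie apart.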

How the results depend on the processing

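With quercetin against control over the 4 times, 0 members were called under every alternative run, leaving out each time or array included. The branch medians at each time, and the distance between branches, moved by less than their SD over the 4 times. That SD holds the time course itself and is a loose limit, as the sign flips at 12 and 24 h given above fell within it. Called members (of 28, or of those an alternative could test) moved past 1.5 times the reported count as follows, and the cause was not tested. For 12 h against 4 h there were 2 after quantile normalization (1 higher, 1 lower), where 5.2% of all genes were called higher and 2.2% lower. For 24 h against 12 h there were 2 with gene-specific probe sets, 12 after cyclic loess and 12 after quantile normalization. Each 12 were all lower, where 8.68% of all genes were called lower after loess and 8.2% after quantile normalization. For 24 h against 2 h there were 2 with gene-specific probe sets, 9 after loess, 9 after quantile normalization and 2 without the variance trend. Each 9 were all lower, where 7.2% of all genes were called lower after loess and 6.64% after quantile normalization. For 24 h against 4 h there were 4 with gene-specific probe sets and 14 after loess. All 14 were lower, where 15.2% of all genes were called lower. For late against early there were 2 with gene-specific probe sets, 1 with no filter, 0 with probe sets averaged, 0 after loess, 0 after quantile normalization and 0 without the trend. After loess or quantile normalization 0% of all genes were called in that contrast. Leaving out 1 array gave 0 to 1 for 4 h against 2 h, 0 to 5 for 12 h against 4 h, 1 to 8 for 24 h against 12 h, 1 to 8 for 24 h against 2 h, 2 to 12 for 24 h against 4 h and 0 to 7 for late against early. The share of all genes called is not given here for the other alternatives, leaving out 1 array included. Their counts thus cannot be set against all genes. Some rises at 24 h against 4 h changed sign. IDI1 was at -0.14 with gene-specific probe sets, -0.066 after loess and -0.098 after quantile normalization. HSD17B7 was at -0.084 after loess and -0.11 after quantile normalization. SC5D was at -0.0051 with the mean of probe sets and -0.008 after quantile normalization. ELOVL5 was at -0.0052 with the mean of probe sets, -0.032 after loess and -0.068 after quantile normalization. Quercetin and control arrays are paired by time in the additive fit, and the labels give no replicate numbers for any further block.

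Of the 65 probe sets, 58 lay above the filter, and 16 members had more than 1 of them. The sign of the mean quercetin difference was shared by all of them in 11 of these members and not in EBP, ELOVL5, MVK, SCD and SQLE. Dim signal limits INSIG1, and each treatment and time has 1 array, so a difference at a single time has no error of its own.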
